A study of Mus musculus with 6 samples.

Results

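The corneal identity and stratification transcription factors described here are 10 genes, *Pax6*, *Trp63*, *Klf4*, *Klf5*, *Ehf*, *Elf3*, *Grhl3*, *Ovol1*, *Tfap2a* and *Sox9*. They were named for their known roles in the eye and in layered epithelia, but with earlier results of these data known. They are 10 of the 17554 genes in the deposited table, and all 10 were among the 12667 genes with enough counts to be tested. Their RNA was measured by bulk RNA-seq in corneal epithelium of 2-month-old C57BL/6 mice, in 3 control samples labelled WT and 3 mutant samples labelled Rela-/-. The study describes the mutants as *Krt14-Cre; Rela f/f* mice, in which a *Krt14* promoter drives Cre recombinase to delete floxed *Rela*, the gene of the NF-κB subunit RelA. Whether the controls carried Cre or the floxed alleles is not given in the sources used here, so an effect of Cre itself cannot be told apart from that of the deletion. The *Krt14* promoter is active in basal cells of many surface epithelia, including limbus, conjunctiva, eyelid and skin, so the deletion was not limited to the cornea. The epithelial layer was separated from the stroma as a whole, and the 3 libraries of a genotype came from independent biological samples. The paper's sequencing methods do not state how many mice each sample held.

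The corneal epithelium is a non-keratinized, layered epithelium that is renewed by limbal stem cells and basal cells. Pax6 is the master regulator of eye development and holds these cells in a corneal rather than an epidermal state, while p63, the product of *Trp63*, keeps the basal layer of layered epithelia proliferative. Krüppel-like factors, epithelial ETS factors, grainyhead-like factors and Ovo-like factors act as cells leave the basal layer, mature and build a barrier. Tfap2a is needed for normal development of the eye surface, and Sox9 is a progenitor factor known from the limbus, glands and hair follicles.

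The summed expected counts, the read numbers per gene that RSEM estimates, ranged from 19492942 to 19733834 per sample. *Rela* itself stood at 36.5, 34.7 and 33.4 FPKM (fragments scaled for transcript length and library total) in controls 1, 2 and 3 and at 4.93, 5.53 and 5.72 FPKM in mutants 1, 2 and 3. It fell by 2.75 on the log2 scale (SE 0.085, edgeR's quasi-likelihood test, Benjamini-Hochberg adjusted p = 5.5e-07), and every library matched its label. The summed FPKM of 6 corneal epithelial genes (*Krt12*, *Krt5*, *Krt14*, *Aldh3a1*, *Tkt* and *Cdh1*) ranged from 45550 to 49620 in controls and from 41860 to 45630 in mutants. This sum hides opposite changes. *Krt14* was at 149.8 to 203 FPKM in controls and 1474 to 2204 FPKM in mutants. *Aldh3a1* (12684 to 13287 against 10227 to 11310 FPKM) and *Tkt* (2068 to 2184 against 1504 to 1957.5 FPKM) were lower in every mutant than in any control. The ranges of *Krt12*, *Krt5* and *Cdh1* overlapped. Of the 9 stromal genes 3 were tested, 1 of which rose and 1 of which fell. *Dcn*, which encodes the stromal proteoglycan decorin, was at 0.03 to 0.08 FPKM in controls and at 1.80, 0.96 and 0.39 FPKM in mutants 1, 2 and 3. *Pdgfra*, a receptor gene of mesenchymal cells, fell from 2.07 to 2.50 FPKM in controls to 1.17 to 1.48 FPKM in mutants (log2 fold change -0.78, adjusted p = 0.005). The summed level of the 9 genes overlapped between genotypes (2.61 to 2.99 against 2.30 to 5.53 FPKM), and *Pdgfra* made up most of it in controls. Among the stromal genes with too few counts to test, *Col1a1*, *Col3a1* and *Vim* were higher in every mutant than in any control. They stood at 0.01 to 0.02, 0.00 to 0.01 and 0.00 to 0.06 FPKM in controls. In mutants they stood at 0.05 to 0.20, 0.05 to 0.29 and 0.25 to 0.53 FPKM. *Kera*, *Lum* and *Col1a2* overlapped between genotypes. The 8 leukocyte genes summed to 85.3 to 92.0 FPKM in controls and 80.1 to 125 in mutants. Most of this sum was *Itgam* (50.97 to 94.8 FPKM), and the defining marker *Ptprc* was at no more than 0.15 FPKM. The 3 listed vessel genes summed to at most 0.09 and 0.23 FPKM, the 6 Schwann cell and melanocyte genes to at most 2.82 and 2.52 FPKM, and the 3 corneal endothelial genes to at most 7.20 and 11.8 FPKM, in controls and mutants. The 5 lens and retina genes were at 4.10 to 5.54 against 8.65 to 13.4 FPKM, and the 5 conjunctival genes at 1394 to 1618 against 1096 to 1217 FPKM, most of it from *Krt13* (939 to 1404 FPKM), with the goblet cell mucin *Muc5ac* at 1 count or fewer in every library. Of the lens and retina genes 3 were tested, and *Bfsp1* rose (log2 fold change 0.91, adjusted p = 0.0018). Of the conjunctival genes 4 were tested, and *Krt13* fell (log2 fold change -0.45, adjusted p = 0.015). The part of these other cells in the values given here was not tested, and in bulk tissue fewer cells of a type and less RNA per cell cannot be told apart.

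The 95% intervals of the genotype difference lay inside a 2-fold change for all 10 factors. Only *Grhl3*, a factor of epithelial maturation and barrier formation, passed an adjusted p of 0.05, being 1.25-fold higher in mutants (95% interval 1.10 to 1.42, n = 3 per genotype). *Pax6*, the factor of corneal identity, was 10.1% lower without passing (adjusted p = 0.19), and *Trp63*, the basal factor, differed by 0.04 on the log2 scale with a 95% interval from -0.16 to 0.23. The 1 call among 10 members stands beside 13.2% of all genes tested that were called, and its direction beside 7.82% of all genes that were called as higher in mutants. The study's methods set stricter thresholds, a 2-fold change together with an adjusted p no higher than 0.001. Here they were applied to the edgeR fit and not to the authors' own DEGseq comparison, so the calls can differ from the study's. With them 0 of the 10 members were called, beside 1.37% of all genes tested. At an unadjusted p under 0.05 there were 3 members, *Grhl3*, *Ovol1* and *Sox9*, all with higher means in mutants, beside 28.1% of all genes tested and 15.1% that were higher in mutants at that p. DESeq2 also called 0 at the stricter thresholds. The median absolute log2 fold change was 0.09 over the members and 0.16 over all genes tested, and the median signed values were 0.03 and -0.0028. The FPKM ranges of the genotypes did not overlap for 3 members, *Pax6*, *Grhl3* and *Sox9*, beside 32.6% of all genes tested. For single genes 3 samples against 3 cannot give an exact permutation p below 0.1, so the tests across all genes are the ones reported.

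**Figure D1:**
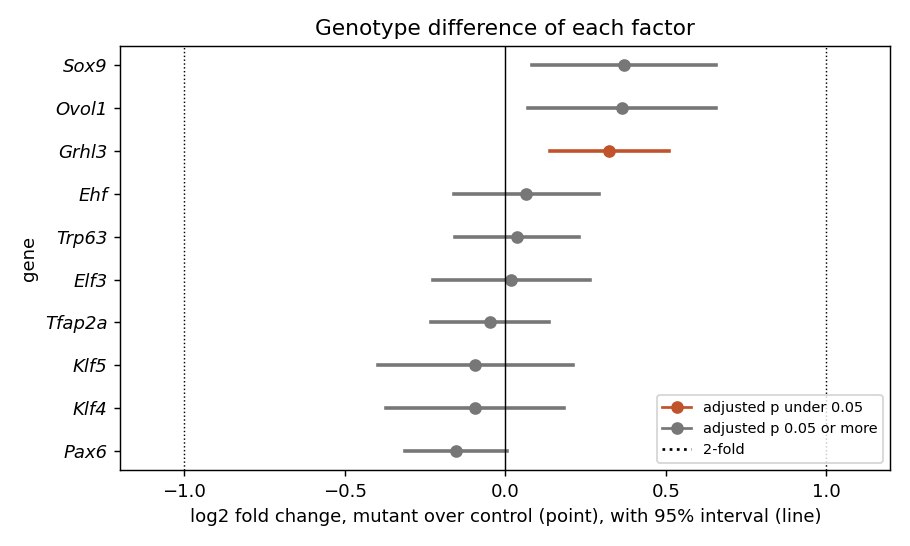
Points are log2 fold changes of mutants over controls for each of the 10 factors, lines are 95% intervals from the edgeR fit (3 samples per genotype), and dotted lines mark 2-fold. Every interval lies inside the 2-fold lines, from the lowest lower bound of -0.40 (*Klf5*) to the highest upper bound of 0.66 (*Sox9*), and only that of *Grhl3* belongs to an adjusted p under 0.05.

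*Pax6* (gene identifier 18508) lies on chromosome 2 at 105668896 to 105702583 in GRCm38. Its level was 209, 222 and 214 FPKM in controls 1, 2 and 3 and 193, 185.5 and 202 FPKM in mutants 1, 2 and 3. Each mutant was below each control. The log2 fold change was -0.15 with a 95% interval from -0.31 to 0.01 (SE 0.070, adjusted p = 0.19 in edgeR's quasi-likelihood test), and the exact two-sided permutation p on FPKM was 0.1, the smallest this design allows. As folds, the bounds of this interval are 0.806 and 1.00. The sign was negative in all 13 alternative analyses, with log2 values from -0.18 to -0.13 and adjusted p from 0.16 to 0.41. Gene-level values do not separate the canonical Pax6 from the form with an insert in the paired domain.

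The promoter of *Pax6* is shown because RelA is a DNA-binding subunit of NF-κB. NF-κB sites follow the loose pattern GGGNNNNNCC, which was searched on both strands in the 300 bases around each RefSeq start site, 250 before it and 50 after it. The pattern is common. It was found in 50.8% of 32851 promoters of that length and in 5 of the 7 entries, of 5 members (*Pax6*, *Klf4*, *Elf3*, *Grhl3* and *Tfap2a*), that matched by symbol. Below are the 250 bases before the first *Pax6* start in RefSeq (GRCm38.p6, chr2:105668646-105668895, plus strand), 5′ to 3′, with matches in capitals.
Pax6: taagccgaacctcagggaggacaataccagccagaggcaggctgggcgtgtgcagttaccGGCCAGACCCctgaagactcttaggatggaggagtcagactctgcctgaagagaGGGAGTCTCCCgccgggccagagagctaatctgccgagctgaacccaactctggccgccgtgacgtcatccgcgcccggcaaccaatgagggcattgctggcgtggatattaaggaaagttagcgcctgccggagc
The capitals hold 3 matches, 2 of them overlapping, and 1 more lies after the start. A match is a run of letters and not a measured binding site.

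*Trp63* (gene identifier 22061, chromosome 16 at 25683763 to 25892088) stood at 76.0, 84.4 and 65.7 FPKM in controls and 71.2, 88.8 and 94.8 FPKM in mutants. Control 3 was the lowest and mutant 3 the highest of all 6 samples, and the ranges overlapped. On counts the log2 fold change was 0.04 (SE 0.086, adjusted p = 0.82). It turned to -0.03 without control 3 and was 0.17 when computed on log2(FPKM + 1). *Trp63* was the member whose counts and FPKM diverged. RSEM divides counts by the average length of the transcripts it assigns reads to, so the ratio of count to FPKM follows that length. Set to a control mean of 100%, this relative length was 99.5%, 98.1% and 102% in controls 1, 2 and 3 and 101%, 89.4% and 85.0% in mutants 1, 2 and 3. Mutants 2 and 3 were lower than all other samples, whereas mutant 1 lay among the controls, and the exact two-sided permutation p was 0.3. The span of 17.4 percentage points was exceeded by 1.39% of 9529 genes for which the ratio could be computed. Among the other members the widest span was 3.08 points (*Ovol1*). GENCODE lists 8 coding transcripts of *Trp63*, from 1729 to 5366 bases. Which of them, including the full-length TA and the amino-terminally truncated ΔN forms, changed in share is not resolved by gene-level values.

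**Figure D2:**
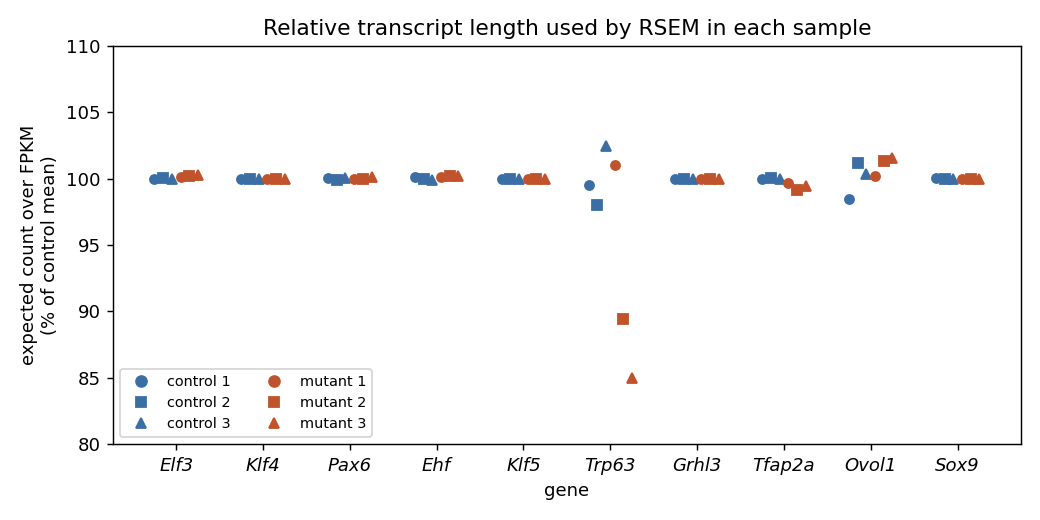
The ratio of expected count to FPKM, as a percentage of the control mean, is shown for each factor in each of the 6 samples (blue, controls; orange, mutants; the symbol gives the replicate; the axis starts at 80%). *Trp63* in mutants 2 and 3 sits at 89.4% and 85.0%, while all values of the other 9 factors lie between 98.4% and 101.5%.

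*Klf4* (gene identifier 16600, chromosome 4 at 55527137 to 55532475), which encodes a Krüppel-like factor needed for corneal maturation and barrier function, was at 431, 448 and 461 FPKM in controls and 329, 459.9 and 470.5 FPKM in mutants. Mutant 1 was the lowest of the 6 samples and mutants 2 and 3 lay within or just above the control range. The genotypes differed by -0.09 on the log2 scale (95% interval -0.37 to 0.18, adjusted p = 0.67), and by 0.05 without mutant 1 (adjusted p = 0.71). *Klf5* (gene identifier 12224, chromosome 14 at 99298682 to 99313412), a related factor of proliferating epithelial cells, had 145, 160.0 and 152 FPKM in controls and 110.1, 146 and 174 FPKM in mutants. Mutant 1 was again lowest, but here mutant 3 was above every control. Its log2 fold change was -0.09 (95% interval -0.40 to 0.21, adjusted p = 0.70), and 0.06 without mutant 1 (adjusted p = 0.69). The coefficient of variation was 3.36% over controls and 18.8% over mutants for *Klf4*, and 4.76% and 22.2% for *Klf5*.

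The *Klf4* promoter had the most matches to the NF-κB pattern among the 7 entries, 5 in all, and is shown for that reason. Its 250 bases before the start (GRCm38.p6, chr4:55532476-55532725, minus strand) read as follows, with the 4 matches that lie wholly before the start in capitals.
Klf4: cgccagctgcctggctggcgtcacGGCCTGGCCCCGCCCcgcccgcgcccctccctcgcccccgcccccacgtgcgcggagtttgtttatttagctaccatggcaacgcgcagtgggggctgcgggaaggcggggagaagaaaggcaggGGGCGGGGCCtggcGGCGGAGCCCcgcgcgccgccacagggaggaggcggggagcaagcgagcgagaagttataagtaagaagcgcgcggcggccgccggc
This stretch was 74.0% G and C, against 60.8% in the *Pax6* stretch, and the pattern is itself rich in G and C. Some of the NF-κB matches shared letters with matches to the GC box GGGCGG, which binds Krüppel-like and Sp factors, was found 4 times in the 300 bases around this start, and occurred in 35.7% of all promoters.

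The epithelial ETS factors differed little in mean. *Ehf* (gene identifier 13661, chromosome 2 at 103263431 to 103303275), an ETS factor of differentiating epithelia, was at 156, 169 and 164 FPKM in controls and at 196, 153 and 162 FPKM in mutants. Mutant 1 was the highest of all samples and mutant 2 the lowest. Its genotype difference was 0.06 on the log2 scale (95% interval -0.16 to 0.29, adjusted p = 0.72), and -0.05 without mutant 1. *Elf3* (gene identifier 13710, chromosome 1 at 135253574 to 135258565), an ETS factor induced as epithelial cells mature, was at 474, 506 and 587 FPKM in controls and 568, 542 and 478 FPKM in mutants. Every mutant lay within the control range. Its log2 fold change was 0.02 (95% interval -0.23 to 0.26, adjusted p = 0.94), and the sign changed in 4 of the 13 alternative analyses. Of the bases in *Elf3* exons, 7.31% overlap an antisense gene, and whether reads were counted by strand is not stated.

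*Grhl3* (gene identifier 230824, chromosome 4 at 135541887 to 135573625), a grainyhead-like factor that acts in barrier formation and epithelial migration, was at 65.0, 56.2 and 56.5 FPKM in controls and 70.4, 78.9 and 73.4 FPKM in mutants. Each mutant exceeded each control, and the gap between control 1 and mutant 1 was the narrowest between the genotypes. The means were 59.2 ± 4.96 and 74.2 ± 4.33 FPKM (SD, n = 3 each). *Grhl3* rose by 0.32 on the log2 scale (95% interval 0.14 to 0.51, SE 0.083, Benjamini-Hochberg adjusted p = 0.031 in edgeR's quasi-likelihood test). The call depended on 3 of the 6 libraries. Without control 2 the log2 value was 0.28 (adjusted p = 0.13), without control 3 it was 0.30 (adjusted p = 0.12), and without mutant 2 it was 0.27 (adjusted p = 0.11), whereas the call held without control 1, mutant 1 or mutant 3 (adjusted p = 0.037, 0.021 and 0.047). Across the 13 alternative analyses the value stayed between 0.27 and 0.39, with adjusted p from 0.0049 to 0.13. No exon base of *Grhl3* overlaps another gene in GENCODE.

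The bases before the *Grhl3* start are shown because it was the member that was called (GRCm38.p6, chr4:135573633-135573882, minus strand), with the match to the NF-κB pattern in capitals.
Grhl3: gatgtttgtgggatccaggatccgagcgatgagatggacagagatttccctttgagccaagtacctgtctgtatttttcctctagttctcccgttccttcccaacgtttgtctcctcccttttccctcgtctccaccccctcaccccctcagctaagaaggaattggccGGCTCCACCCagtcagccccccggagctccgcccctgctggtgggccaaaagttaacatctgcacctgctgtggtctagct
The single match, on the strand opposite to the gene, starts 81 bases before the start site. The grainyhead-like pattern AACCGGTT, searched in the same way, was in 0 of the 7 entries of members and in 0.146% of all promoters. The Krüppel-like CACCC box, CACCC on either strand, was found 3 times around the *Grhl3* start, in 5 of the 7 entries and in 57.5% of all promoters, and 1 of these matches shares letters with the NF-κB match. The pattern GCCNNNGGC, bound by Tfap2 proteins, was in 2 of the 7 entries, those of *Pax6* and *Klf4*, and in 16.6% of all promoters.

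*Ovol1* (gene identifier 18426, chromosome 19 at 5549137 to 5560575), an Ovo-like zinc finger factor that drives epidermal cells out of the progenitor state, was at 20.6, 17.2 and 19.1 FPKM in controls and 26.5, 26.7 and 19.3 FPKM in mutants. Mutants 1 and 2 were above every control, and mutant 3 was within the control range. Its log2 fold change was 0.36 (95% interval 0.07 to 0.66, SE 0.13, adjusted p = 0.10), so it did not pass. It passed without mutant 3 (0.51, adjusted p = 0.0076) and with DESeq2 (0.36, adjusted p = 0.045). The stromal *Dcn* was likewise lowest in mutant 3 among the mutants, and its part was not tested. *Ovol1* is a neighbour of *Rela* and ends 75.3 kb before it. Of its exon bases 22.0% overlap antisense genes, so part of its reads could come from them.

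*Tfap2a* (gene identifier 21418, chromosome 13 at 40715302 to 40739021) was at 45.6, 43.1 and 47.0 FPKM in controls and 40.0, 45.2 and 47.1 FPKM in mutants. Mutant 1 was the lowest sample and the others were at control levels. The log2 fold change was -0.05 (95% interval -0.23 to 0.14, adjusted p = 0.74), and 0.01 without mutant 1. Antisense genes overlap 14.6% of its exon bases.

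*Sox9* (gene identifier 20682, chromosome 11 at 112782210 to 112787757) was the lowest member, at 7.19, 6.77 and 5.60 FPKM in controls and 7.29, 7.91 and 10.1 FPKM in mutants. The lowest mutant was just above the highest control, and mutant 3 stood apart from the rest. Its log2 fold change was 0.37 (95% interval 0.08 to 0.66, SE 0.13, adjusted p = 0.09), which did not pass. Without mutant 1 it passed, at 0.46 (adjusted p = 0.033). The counts behind these values were 457 to 591 in controls and 594 to 836 in mutants, the smallest of the 10 members.

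The order of the members by mean FPKM was the same in both genotypes, from *Elf3* and *Klf4* through *Pax6*, *Ehf*, *Klf5*, *Trp63*, *Grhl3*, *Tfap2a* and *Ovol1* to *Sox9*. FPKM is scaled by length, so levels can be set side by side across genes. *Elf3* had 523 ± 58.2 FPKM and *Sox9* 6.52 ± 0.824 FPKM in controls (SD, n = 3 each). Of the genes tested, 0.789% had a higher mean FPKM than *Elf3*, 2.22% than *Pax6*, and 53.0% than *Sox9*. In controls the only neighbours whose ranges overlapped were *Ehf* and *Klf5*. In mutants *Pax6* and *Ehf*, *Ehf* and *Klf5*, and *Trp63* and *Grhl3* overlapped, and for these pairs the order is not resolved. The 10 members together came to 1629, 1713 and 1772 FPKM in controls and 1612, 1734 and 1731 FPKM in mutants. *Elf3* and *Klf4* led this sum in every sample, with *Elf3* making up 29.1% to 33.1% of it in controls and 27.6% to 35.2% in mutants. *Klf4* made up 20.4% in mutant 1 and 26.0% to 27.2% in the other 5 samples.

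**Figure D3:**
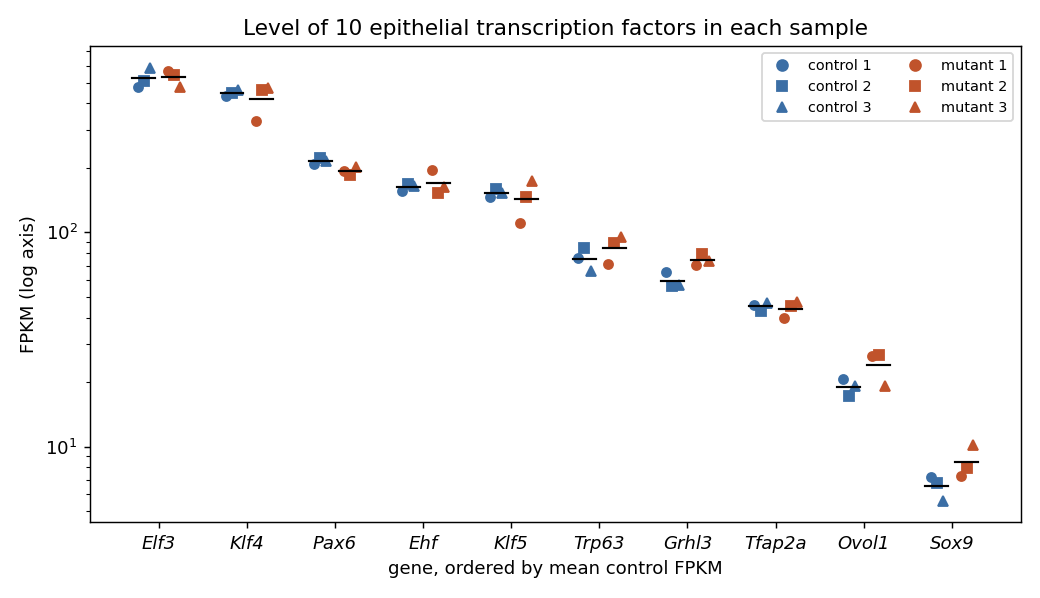
Each symbol is 1 sample's FPKM on a log axis (blue, controls; orange, mutants; the symbol gives the replicate), and black lines are the means of 3 samples. The genes keep the same order in both genotypes, from *Elf3* at 523 FPKM to *Sox9* at 6.52 FPKM in controls.

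The mutants spanned a wider range than the controls for 8 members, all but *Elf3* and *Grhl3*. The share of all genes with a wider range in mutants is not given here, so this is not read as a trait of these factors. Mutant 1 was the lowest of the 3 mutants for 6 members and the highest for 2, whereas mutant 3 was the lowest for 2 and the highest for 6. The departures of mutant 1 from the mean of controls were -0.44 for *Klf4*, -0.47 for *Klf5* and -0.18 for *Tfap2a* on the log2 scale, and 0.27 for *Ehf*. For mutants 2 and 3 the same departures were 0.04 and 0.08 for *Klf4* and -0.06 and 0.19 for *Klf5*. Mutant 1 was also the library with the most *Dcn* and the largest summed level of the listed leukocyte genes. That sum was mostly *Itgam* (94.8 FPKM, against 50.97 to 67.1 in the other 5 samples), while *Ptprc* was at no more than 0.15 FPKM in any sample. The part of *Dcn* and *Itgam* in the departures of mutant 1 was not tested.

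**Figure D4:**
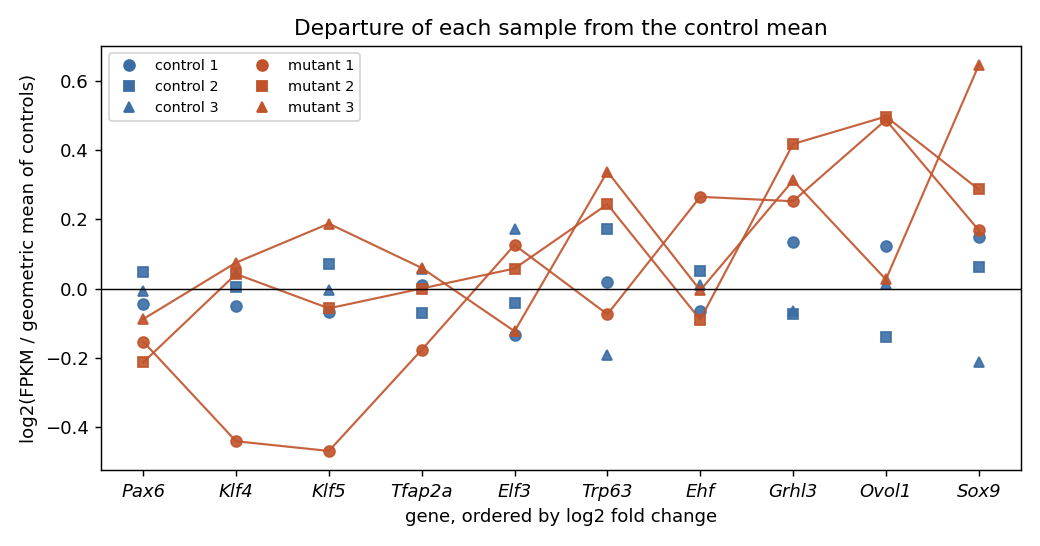
Each symbol is the log2 ratio of 1 sample's FPKM to the geometric mean of the 3 controls, for the factors ordered by log2 fold change, and the lines only join the values of one mutant. Mutant 1 is lowest at *Klf4* and *Klf5* (-0.44 and -0.47), mutant 3 is highest at *Sox9*, and all 3 mutants are above the controls at *Grhl3*.

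The families of the 10 factors showed single changes of larger size. Of 35 family members, 31 were tested, 4 rose and 2 fell, with a median log2 fold change of 0.04. The share called was 19.4%, beside 13.2% of all genes tested. *Klf10*, which encodes a TGF-β-inducible Krüppel-like factor, rose by 2.25 (5.51 ± 0.786 FPKM in controls, SD, n = 3) and *Klf7* by 1.29, and these 2 also passed the stricter thresholds. *Ets1*, an ETS factor, rose by 1.27 and *Elf4* by 0.51. *Sox21* fell by 0.71 and *Tfap2e* by 0.78. Antisense genes overlap 39.4% of the exon bases of *Klf7* and 18.8% of those of *Sox21*. The closest relatives of the stratification factors gave log2 fold changes near 0, namely 0.03 for *Grhl1* (adjusted p = 0.90), 0.04 for *Grhl2* (0.75), -0.07 for *Ovol2* (0.83) and -0.17 for *Tfap2c* (0.25). The calls of *Elf4* and *Tfap2e* were lost on leaving out control 2 (adjusted p = 0.073 and 0.081) or control 3 (0.079 and 0.082), that of *Elf4* also without mutant 3 (0.056) and that of *Tfap2e* without control 1 (0.054).

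A list of 32 other regulators of surface epithelia had more calls. Of 28 tested, 13 rose and 3 fell, with a median log2 fold change of 0.26, and 0 passed the stricter thresholds. The share called was 57.1%, beside 13.2% of all genes tested. The list was chosen with earlier results of these data known, so its share is a description and not a test. Among the rises of smallest adjusted p were those of *Runx1* (0.90), a regulator of hair follicle and epithelial progenitors, *Snai2* (0.95), a repressor of differentiation in basal keratinocytes, *Cebpb* (0.64), a factor of keratinocyte differentiation, and the vitamin D receptor gene *Vdr* (0.68). *Foxc1*, a factor of anterior eye development, fell by 0.63. The other 2 that fell were *Id2* (-0.75) and *Hopx* (-0.42), which are named because they complete the count. *Zfp750*, a differentiation factor placed downstream of p63, differed by 0.19 (adjusted p = 0.21). Antisense genes overlap 20.7% of the exon bases of *Cebpb* and 27.2% of those of *Hopx*. Of the 16 calls, 11 held in all alternative analyses. The call of *Hopx* was lost without control 2 or control 3 (adjusted p = 0.072 and 0.086).

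Genes that are commonly placed downstream of the factors moved in both directions. Of 24, 22 were tested, 7 rose and 3 fell. The share called was 45.5%, beside 13.2% of all genes tested, in a list also chosen with earlier results of these data known. *Krt14*, the basal keratin regulated by p63 and the gene after which the Cre line is named, rose by 3.32 on the log2 scale. It went from 203, 149.8 and 181 FPKM in controls to 2204, 1580 and 1474 FPKM in mutants. The paper, from images of young mutants, describes K14 expression in cornea and limbus as not affected. Such images and RNA counts are unlike measures. Read-length windows of *Krt14* are shared to 13.9% with *Krt16* and *Krt17*, so part of its counts depends on how RSEM divided reads. The laminin gene *Lamb3* (1.23), the integrin genes *Itga6* (0.73) and *Itgb4* (0.53), the chaperone gene *Clu* (1.23), and the cornified envelope genes *Tgm1* (0.57) and *Ivl* (1.07) rose as well. Of the corneal genes, *Aldh3a1* fell by 0.25 (adjusted p = 0.047), while *Krt12*, a target of Pax6 and Klf4, had a log2 fold change of -0.15 (95% interval -0.33 to 0.03, adjusted p = 0.26) and the basal keratin gene *Krt5* -0.07 (adjusted p = 0.59). *Tkt* (-0.30, adjusted p = 0.065) and *Aqp5* (-0.27, adjusted p = 0.10) were not called. Each was lower in every mutant than in any control, beside 32.6% of all genes tested whose ranges did not overlap in either direction. *Slurp1* was at -0.13 (adjusted p = 0.71) and *Cdh1* at 0.12 (adjusted p = 0.38), both with overlapping ranges. Antisense genes overlap 54.4% of the exon bases of *Krt12* and 5.87% of those of *Krt5*. The other 2 that fell, named to complete the count, were the cyclin gene *Ccnd1* (-0.62) and the basal keratin gene *Krt15* (-0.55). Without control 3 the calls in this list went from 10 to 5, those of *Itgb4* (adjusted p = 0.053), *Ivl* (0.060), *Ccnd1* (0.054), *Krt15* (0.10) and *Aldh3a1* (0.15) being lost, and the last 3 were also lost without control 1, control 2 or mutant 2. The call of *Aldh3a1* was the least stable, lost on leaving out any 1 sample (adjusted p from 0.064 to 0.15), with no filter (0.065), with limma at either pseudocount (0.35) and with the replicate block (0.11). That of *Krt15* was also lost without mutant 3 (0.074) and with limma on log2(FPKM + 1) (0.052).

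**Figure D5:**
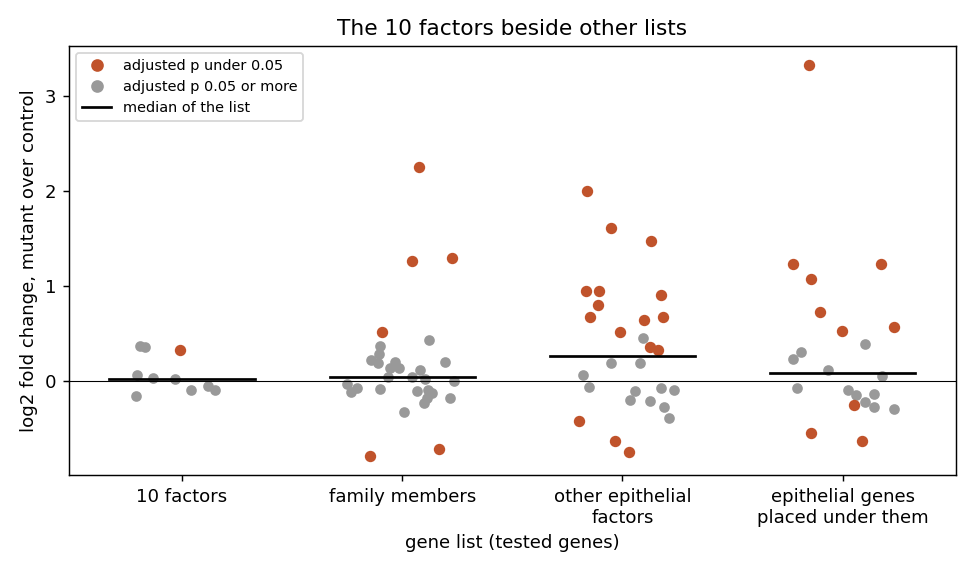
Each point is the log2 fold change of 1 tested gene, mutant over control, for the 10 factors, their family members, other epithelial factors and epithelial genes placed under them, with adjusted p under 0.05 in orange and black lines at the medians (0.03, 0.04, 0.26 and 0.09). The 10 factors lie between -0.15 and 0.37, while *Krt14* reaches 3.32 and *Klf10* 2.25. All lists were chosen with earlier results of these data known.

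The genes whose pattern over the 6 samples was most like that of *Grhl3* were found by the root mean square difference of mean-centred log2 values. They were *Slc25a25*, a mitochondrial carrier gene, with a difference of 0.038 and a log2 fold change of 0.31 (adjusted p = 0.11), and *Cfap36*, with 0.041 and 0.33 (adjusted p = 0.073). Neither was called. *Slc25a25* was at 3.83, 3.19 and 3.45 FPKM in controls and 4.04, 4.75 and 4.21 FPKM in mutants. Control 1 and mutant 1 were the closest pair between the genotypes, as they were for *Grhl3*. This likeness follows from how the gene was chosen, on these same samples, and is not a separate result.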

How the data were processed

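Corneal epithelial RNA of 3 control and 3 mutant samples was sequenced as single-end reads. The authors filtered reads with SOAPnuke, aligned them with Bowtie2 2.2.5 and estimated expected counts per gene with RSEM 1.2.12, as the submitters' processing notes and the paper's methods say. The deposited expected counts are not normalized, and the deposited FPKM values are those counts scaled by RSEM for transcript length and sample total. The processing notes name mm9, whereas the gene positions in the table carry accessions of GRCm38, and positions are given as in the table. Columns of the authors' DEGseq comparison (log2 fold changes, p-values, q-values) were not used. There were 0 per-sample columns that could not be mapped to a sample of the series.

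Genotypes were compared in edgeR 4.0.16 (R 4.3.3) by its quasi-likelihood test on the rounded counts, after filterByExpr (minimum count 10, minimum total 15) and TMM scaling. P-values were adjusted by the Benjamini-Hochberg method across all 12667 tested genes. Standard errors and 95% intervals come from that fit, and the script was tested on simulated data. For single genes, exact two-sided permutation tests were run on FPKM. Alternatives were DESeq2 1.42.0, upper-quartile and RLE scaling, no filter, limma 3.58.1 on log2(FPKM + 1) and log2(FPKM + 0.1), a replicate block and each sample left out. With a sample left out, the spread was estimated from the remaining samples.

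All 10 factors are named. From each other list up to 6 called genes of smallest adjusted p and up to 4 with a known role beside a factor are named, and for a called factor the 2 genes of most similar pattern. Not all genes under this rule are reported here, and some genes outside it are named, among them *Aqp5*, *Slurp1* and *Cdh1*. The members and lists were chosen with earlier results of these data known. Members matched RefSeq by gene identifier (10 of 10), and promoters, matched by symbol, came from RefSeq on GRCm38.p6. Overlaps were counted in GENCODE transcripts on GRCm38. The depth gives each member at least 457 counts. The p-values of edgeR set each genotype difference against the spread between samples, which is estimated with information shared across genes. Unusually low or high samples were not tested for, since each group has 3 samples.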

Additional observations from a re-analysis of the deposited data

How the results depend on the processing

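The count of members called was 1, and it was 2 with DESeq2 (*Grhl3* and *Ovol1*), 0 with the replicate block, 0 to 2 on leaving out one sample (0 without control 2, control 3 or mutant 2, and 2 without mutant 1 or mutant 3), and 1 under the other alternatives. No alternative called a member at the stricter thresholds. Calls over all genes numbered 1678 and ranged from 857 (without control 2) to 1869 (without mutant 1) on leaving out one sample, with 999 without control 3. At the stricter thresholds there were 173, with 330 for DESeq2, 114 for limma on log2(FPKM + 1) and 36 to 193 on leaving out one sample (36 without control 2, 56 without control 3, 88 without control 1). Calls among the downstream genes numbered 10, and 5 to 10 on leaving out one sample. The lowest and highest log2 fold changes on leaving out one sample had opposite signs for *Trp63* (-0.026 and 0.10), *Klf4* (-0.17 and 0.049), *Klf5* (-0.24 and 0.0595), *Ehf* (-0.0537 and 0.13), *Elf3* (-0.0562 and 0.12), *Tfap2a* (-0.0899 and 0.0099), *Grhl1* (-0.11 and 0.11) and *Ovol2* (-0.18 and 0.10). *Grhl1* was also at -0.0010 and -0.0012 with limma at the larger and the smaller pseudocount. The cause of these changes was not tested. Same-numbered samples did not deviate together over all genes (correlations of 0.019, 0.048 and -0.046). The labels do not say whether the numbers pair the samples. These correlations cannot decide it, since a shared effect on few genes would not show in them. With the replicate block 1419 genes were called, and the log2 value of *Grhl3* was 0.33 (adjusted p = 0.067). The scaling alternatives moved the median of all genes by less than 0.1. Every member had at least 457 counts in each sample.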
